A study of Homo sapiens with 6 samples.

Results

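The miR-30 family is a group of microRNAs (miRNAs) made from hairpins at 3 chromosomal loci, and its 10 arms named here were read out in MDA-MB-231 cells with and without RARαS77A. The members were chosen by name: both arms of miR-30a, miR-30b, miR-30d and miR-30e, together with miR-30c-5p and miR-30c-2-3p, 10 of the 1582 miRNAs of the deposited table. One further arm of the same loci, miR-30c-1-3p, is described as a neighbour and is not counted as a member. MDA-MB-231 is a human triple negative breast cancer (TNBC) line, a class defined by the lack of HER2 and of the receptors for estrogen and progesterone. The 3 control libraries came from non-transfected (blank) cells, and the other 3 came from cells given RARαS77A, a form of the retinoic acid receptor α whose serine-77 is replaced and can no longer be phosphorylated. The series' design text names a lentiviral construct. Cells with an empty vector or wild-type RARα were not analysed here, so that the delivery and the mutant receptor cannot be told apart.

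A miRNA hairpin is cut by Drosha and then by Dicer into a short duplex, and either strand, named the 5p or the 3p arm, can be loaded into an Argonaute protein. The loaded arm finds its target mRNAs mainly by its seed, a short stretch near its 5′ end. The 5p arms of the miR-30 family share 1 seed and therefore overlap in their targets, while the 3p arms carry other seeds. miR-30 is known for repression of SNAI1, a transcription factor of the epithelial-mesenchymal transition (EMT), and of BECN1, a factor of autophagy.

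Mature sequences from RefSeq (GRCh38.p14) were matched to 6 of the 10 members and to miR-30c-1-3p. They are shown because the shared seeds and the near identity of some arms decide how the counts can be read. The capitals mark the seed, bases 2 to 8.
hsa-miR-30a-5p: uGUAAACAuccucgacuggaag
hsa-miR-30e-5p: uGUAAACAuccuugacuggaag
hsa-miR-30c-5p: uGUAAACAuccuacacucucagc
hsa-miR-30a-3p: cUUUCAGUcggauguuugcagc
hsa-miR-30e-3p: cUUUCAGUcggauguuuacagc
hsa-miR-30c-2-3p: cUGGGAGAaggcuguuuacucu
hsa-miR-30c-1-3p: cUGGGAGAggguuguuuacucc
The 3 sequences of 5p arms share the seed GUAAACA. The 3p arms of miR-30a and miR-30e share UUUCAGU, and the 3p arms of both miR-30c hairpins share UGGGAGA. Among the 1342 miRNAs of the table with a mature sequence in RefSeq, no miRNA outside the family had any of these 3 seeds. miR-30a-5p and miR-30e-5p were identical at 21 of 22 bases and differed by C13U, with positions counted from 1 at the 5′ end and the miR-30a base first. Likewise, miR-30a-3p and miR-30e-3p were identical at 21 of 22 bases and differed by G18A. The notes on how the table was made name Bowtie, but no source used here states if mismatches were allowed, so reads with a sequencing error could be assigned to the close relative. No miR-30 arm was among the pairs of miRNAs whose counts were nearly the same in every library.

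The hairpins of miR-30a and miR-30e show how the arms lie on the precursor. The capitals mark the mature arms, with the 5p arm first.
MIR30A: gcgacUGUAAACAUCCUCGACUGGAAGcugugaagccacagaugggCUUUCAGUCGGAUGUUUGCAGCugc
MIR30E: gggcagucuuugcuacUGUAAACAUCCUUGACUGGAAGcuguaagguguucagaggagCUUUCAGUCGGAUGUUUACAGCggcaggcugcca
MIR30A lies on the minus strand at chr6:71403551-71403621 (GRCh38), and MIR30C2 on the same strand at chr6:71376960-71377031, with 26519 bases between them. GENCODE 29 places both in introns of the lincRNAs LINC00472 and AL136164.2, on the strand of these genes. MIR30E is at chr1:40754355-40754446 and MIR30C1 at chr1:40757284-40757372, both on the plus strand in introns of NFYC, a subunit of the CCAAT-binding factor NF-Y, with 2837 bases between them. The miR-30c-5p sequence is present in both MIR30C1 and MIR30C2, so that its counts are a sum over 2 loci, whereas each 3p arm of miR-30c belongs to 1 hairpin.

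The libraries held 9019266 to 11338580 counts. Counts are relative, and each fold change depends on the scaling. TMM factors lay between 1.154 and 1.298 in control libraries and between 0.8109 and 0.8296 in RARαS77A libraries. The log2 fold change (RARαS77A minus control) of all 506 miRNAs tested had a median of 0.06 with TMM and -0.51 with total counts alone, a shift of -0.573. Both scalings are therefore given for each member. In addition, the control libraries differed from each other in some markers of other cell types. On the stem cell list, control replicate 3 was close to the RARαS77A libraries, and control replicates 1 and 2 stood apart. The list holds 9 miRNAs typical of pluripotent stem cells (miR-302, miR-367 and miR-371 to miR-373). They summed to 2 and 1 counts in control replicates 1 and 2, and to 3832 in control replicate 3. In the RARαS77A libraries, the sum was between 2808 and 2877. Of these 9, 8 were at 0 in each of control replicates 1 and 2, and none was at 0 in the other 4 libraries. Over all tested miRNAs, control replicate 3 correlated with the RARαS77A libraries at 0.9705, 0.9769 and 0.9779 (Pearson r, log2 of TMM-scaled counts). Its correlation with control replicates 1 and 2 was 0.9744 and 0.9736. Control replicates 1 and 2 correlated with each other at 0.9856, and with the RARαS77A libraries at 0.9442 to 0.9534. The tested miRNAs include 7 of the stem cell list. A chi-square per miRNA between libraries, on counts scaled by totals, weighs abundant miRNAs more. By it, control replicate 3 was at 196.1 and 276.9 from control replicates 1 and 2, which were at 322.9 from each other. From the RARαS77A libraries it was at 922.2 to 1492.7, so that by this measure it was nearer to the controls. Of 24 markers of other cell types (stem cell, muscle, liver, endocrine, neuron and blood), 23 were in the table. Together they summed to 3442 to 5896 counts in control and 5641 to 6043 in RARαS77A libraries. A large part was the neuron miRNA miR-9-5p, with 1578, 2166 and 1181 counts in control and 2338, 2048 and 1923 in RARαS77A libraries. Its log2 fold change was 1.02 with TMM (adjusted p = 0.00171, edgeR) and 0.43 with total counts (adjusted p = 0.0704, edgeR). Within these sums, the muscle miRNA miR-1-3p had 898 counts in control replicate 1 and 28 to 49 in the other 5 libraries. The endocrine miRNA miR-375-3p had 870 counts in control replicate 2 and 19 to 54 in the other libraries. What part these have in the values of the miR-30 arms was not tested. For each member, the value without control replicate 3, and against it alone, is given beside the result.

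The family was abundant in both groups, and its share of the library totals was similar. The 10 arms together took 4.47%, 4.27% and 4.82% of the counts in control cells and 4.18%, 4.28% and 4.31% in RARαS77A cells. The means were 4.52% ± 0.280 and 4.26% ± 0.0691 (SD, n = 3 each), and the groups overlapped. The 5p arms held nearly all of this, with 4.39% ± 0.285 in control and 4.13% ± 0.0625 in RARαS77A cells (exact permutation test, two-sided, p = 0.3). The 3p arms took 0.127% ± 0.0115 and 0.131% ± 0.00662, respectively (SD, n = 3 each). miR-30a-5p ranked 4 or 5 by count in all 6 libraries, and miR-30d-5p ranked between 8 and 12. At the other end, miR-30b-3p had 94, 127 and 68 counts in control and 12, 26 and 31 in RARαS77A libraries, so that its values are the least precise of the family. Levels of different miRNAs also depend on how well each sequence is captured in library preparation, so that the order of the arms is that of the counts.

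All 10 members passed the expression filter. With edgeR's quasi-likelihood test on TMM-scaled counts and an adjusted p under 0.05, 4 members were higher in RARαS77A cells (miR-30a-5p, miR-30a-3p, miR-30d-5p and miR-30e-3p), where 23.3% of all tested miRNAs were called higher. A further 3 were lower (miR-30b-5p, miR-30b-3p and miR-30c-2-3p), where 21.1% of all were called lower. The other 3 (miR-30c-5p, miR-30d-3p and miR-30e-5p) did not pass. With total counts alone, 1 member was higher (miR-30e-3p), against 10.1% of all miRNAs, and 6 were lower (miR-30b-5p, miR-30b-3p, miR-30c-5p, miR-30c-2-3p, miR-30d-3p and miR-30e-5p), against 42.1%. Hence miR-30e-3p was higher, and miR-30b-5p, miR-30b-3p and miR-30c-2-3p were lower, under both scalings. The median log2 fold change of the 10 members was -0.02 with TMM and -0.59 with total counts. The counts of 4 higher and 3 lower were the same with any 1 of the 3 control libraries left out, and also with control replicate 3 as the only control. The latter assumes that a single control varies like the RARαS77A libraries.

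On the TMM scale, the libraries of the groups did not overlap in 7 of the 10 members, close to the 58.1% of all 506 tested miRNAs without overlap.

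**Figure D1:**
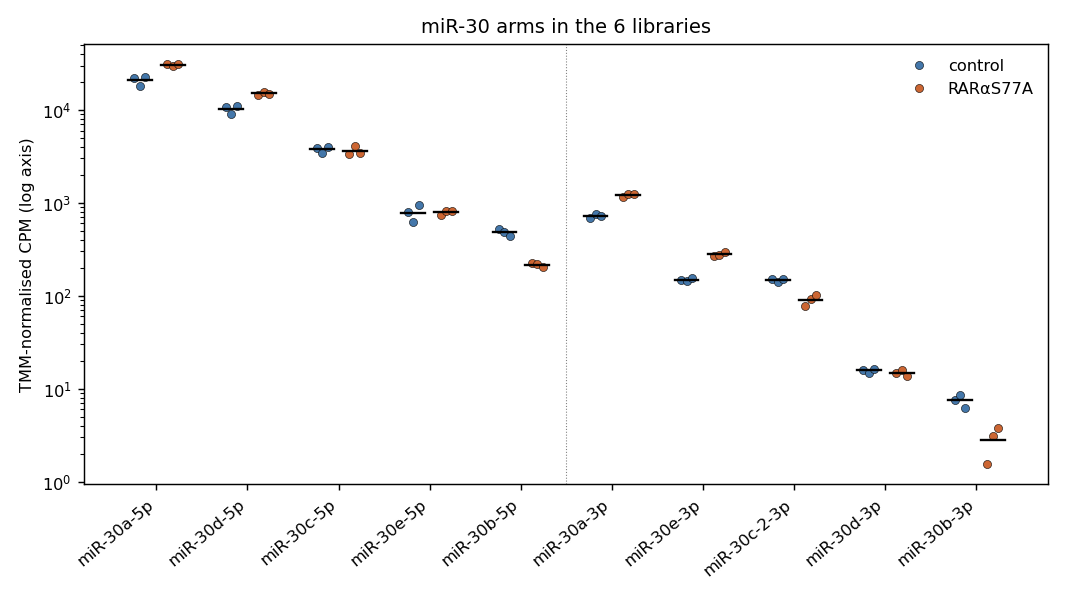
TMM-normalised counts, scaled to a standard library size (CPM, log axis), of the 10 miR-30 arms in each library, with control in blue and RARαS77A in orange, 3 points per group and a bar at the mean. The 5p arms are on the left and the 3p arms on the right, each sorted by the control mean; the groups do not overlap in 7 of the 10 arms, and in 58.1% of all tested miRNAs.

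The miR-30a hairpin is the main source of the family's counts. miR-30a-5p, the most abundant member, had 21894, 18257 and 22390 CPM in control and 31210, 29964 and 30967 CPM in RARαS77A libraries. All RARαS77A values lay above the controls on this scale, and control replicate 2 was the lowest. On the deposited TPM, which has no TMM factor, the values were 25262, 23683 and 27169 against 25305, 24505 and 25686, and the groups overlapped. The log2 fold change of miR-30a-5p was 0.56 with TMM (standard error 0.12, adjusted p = 0.00696, edgeR) and -0.01 with total counts (adjusted p = 0.925, edgeR). Its partner arm miR-30a-3p had 684, 760 and 713 CPM in control and 1167, 1232 and 1234 CPM in RARαS77A libraries. miR-30a-3p rose by a log2 fold change of 0.75 with TMM (standard error 0.08, adjusted p = 0.000334, edgeR), against 0.17 with total counts (adjusted p = 0.197, edgeR). Without control replicate 3, the TMM value was 0.56 for miR-30a-5p and 0.69 for miR-30a-3p, and against this library alone it was 0.49 and 0.80, respectively. On the TPM scale, the lowest RARαS77A value of this arm, 946, was below the highest control, 986.

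miR-30c-2-3p, from the other hairpin of the chromosome 6 locus, went the other way. It had 150.4, 141 and 149.9 CPM in control and 77.7, 92.8 and 100.7 CPM in RARαS77A libraries. Each RARαS77A value was below each control under both scalings. The log2 fold change was -0.70 with TMM (standard error 0.13, adjusted p = 0.00409, edgeR) and -1.28 with total counts (adjusted p = 0.000458, edgeR). With TMM, it was -0.74 without control replicate 3 and -0.70 against it alone.

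miR-30d and miR-30b share the locus on chromosome 8, where MIR30D (start 134804876, end 134804945) and MIR30B (start 134800520, end 134800607) lie on the minus strand of GRCh38 with 4268 bases between them, and GENCODE 29 lists no host gene there. The 5p arms of this pair moved apart. miR-30d-5p, the next most abundant member after miR-30a-5p, had 10635, 9026 and 10971 CPM in control and 14526, 15657 and 14905 CPM in RARαS77A libraries. All RARαS77A values of miR-30d-5p were above the controls with TMM, but its TPM overlapped, from 11709 to 13313 in control and from 11777 to 12805 in RARαS77A libraries. Its log2 fold change was 0.56 with TMM (standard error 0.11, adjusted p = 0.00454, edgeR) and -0.01 with total counts (adjusted p = 0.911, edgeR). With TMM, it was 0.56 without control replicate 3 and 0.49 against it alone. miR-30b-5p had 522, 488 and 438 CPM in control and 223, 222 and 204 CPM in RARαS77A libraries. The RARαS77A libraries were close to each other and below each control, and control replicate 3 was the lowest control. miR-30b-5p fell by 1.16 on the log2 scale with TMM (standard error 0.10, adjusted p = 0.000237, edgeR) and by 1.73 with total counts (adjusted p = 0.000114, edgeR). The log2 fold change was -1.28 without control replicate 3 and -0.99 against it alone, with TMM. Its rank by count moved from between 67 and 73 in control to between 96 and 102 in RARαS77A libraries.

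The 3p arms of this locus were scarce. miR-30b-3p had 7.54, 8.63 and 6.21 CPM in control and 1.53, 3.10 and 3.73 CPM in RARαS77A libraries, and the groups did not overlap. Its log2 fold change was -1.42 with TMM (standard error 0.31, adjusted p = 0.00878, edgeR) and -1.99 with total counts (adjusted p = 0.00219, edgeR). miR-30d-3p had 16.0, 14.9 and 16.2 CPM in control and 14.9, 15.8 and 13.6 CPM in RARαS77A libraries, with overlap. For miR-30d-3p, the log2 fold change was -0.08 with TMM (adjusted p = 0.679, edgeR) and -0.66 with total counts (adjusted p = 0.0136, edgeR). Without control replicate 3, the TMM value was -1.59 for miR-30b-3p and -0.12 for miR-30d-3p, and against it alone -1.12 and -0.10.

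In the locus on chromosome 1, the 3p arm of miR-30e rose and its 5p arm did not pass the test with TMM. miR-30e-3p had 146, 145 and 154 CPM in control and 266, 275 and 299 CPM in RARαS77A libraries. The groups were well separated, and they remained separate on the TPM scale, with 169 to 189 in control and 216 to 248 in RARαS77A libraries. For this arm, the log2 fold change was 0.92 with TMM (standard error 0.10, adjusted p = 0.000334, edgeR) and 0.34 with total counts (adjusted p = 0.0391, edgeR). By count, this arm ranked between 111 and 114 in control and between 86 and 88 in RARαS77A libraries. miR-30e-5p had 788, 619 and 947 CPM in control and 732, 815 and 814 CPM in RARαS77A libraries, so that the RARαS77A values lay inside the control range. Its highest value was in control replicate 3. The log2 fold change of miR-30e-5p was 0.00 with TMM (standard error 0.15, adjusted p = 0.989, edgeR) and -0.56 with total counts (adjusted p = 0.0120, edgeR). The TMM value of this arm was 0.11 without control replicate 3 and -0.23 against it alone, and neither passed the test (adjusted p = 0.481 and 0.292, edgeR). For miR-30e-3p it was 0.89 and 0.90, respectively.

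The neighbouring arm miR-30c-1-3p had 74, 119 and 72 counts in control and 21, 38 and 37 in RARαS77A libraries. In CPM, it went from 6.87 ± 1.11 to 3.88 ± 1.05 (SD, n = 3 each), and the groups did not overlap. Its log2 fold change was -0.82 with TMM (standard error 0.25, adjusted p = 0.0309, edgeR) and -1.40 with total counts (adjusted p = 0.00456, edgeR). The call with TMM was lost without control replicate 2 (adjusted p = 0.0789, edgeR). With upper quartile scaling and all libraries, this arm did not pass either (log2 fold change -0.63, adjusted p = 0.0812, edgeR). Against control replicate 3 alone, its log2 fold change was -0.73 with TMM, and the call was lost there too.

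miR-30c-5p, which both miR-30c hairpins produce, had 3879, 3454 and 3956 CPM in control and 3360, 4113 and 3465 CPM in RARαS77A libraries. The groups overlapped, and RARαS77A replicate 2 was the highest of all 6 libraries. On the TPM scale they did not overlap, with 4476 to 4800 in control and 2724 to 3364 in RARαS77A libraries. For miR-30c-5p, the log2 fold change was -0.05 with TMM (standard error 0.11, adjusted p = 0.733, edgeR) and -0.62 with total counts (adjusted p = 0.00211, edgeR). With TMM, it was -0.06 without control replicate 3 and -0.09 against it alone.

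**Figure D2:**
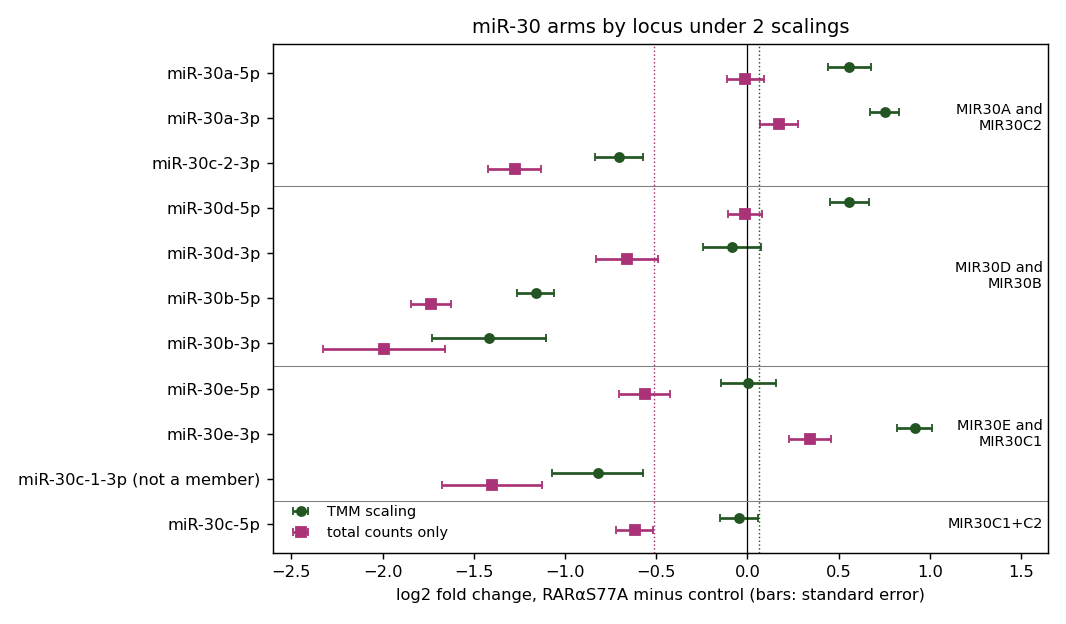
Log2 fold change (RARαS77A minus control) of each miR-30 arm, grouped by locus, with TMM scaling (green circles) and with total counts alone (purple squares), and bars of 1 standard error; dotted lines mark the median of all 506 tested miRNAs under each scaling. The arms of miR-30b and the 3p arms of miR-30c lie to the left of the other arms of their locus under either scaling.

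A ratio of 2 arms within a library does not depend on the scaling. For the 5 arms of the 5p side, all 10 pairs were compared. The groups did not overlap in 8 pairs, whereas 55.6% of all pairs of tested miRNAs had no overlap. Each of the 8 had p = 0.1 in the exact two-sided permutation test, the smallest that 3 libraries against 3 allow, and an adjusted p of 0.125 over the 10 pairs, so that no pair could pass 0.05. The most even pair was miR-30a-5p to miR-30d-5p, with 2.06, 2.02 and 2.04 in control and 2.15, 1.91 and 2.08 in RARαS77A libraries, a log2 difference of 0.00 (standard error 0.05). The RARαS77A values lay on both sides of the control values. miR-30c-5p to miR-30e-5p also overlapped, with a log2 difference of -0.07 (standard error 0.14). miR-30a-5p to miR-30c-5p went from between 5.28 and 5.66 to between 7.29 and 9.29, a 1.53-fold change of the ratio (standard error of the log2 difference 0.11). miR-30a-5p to miR-30b-5p changed most of the 10, from between 37.4 and 51.1 to between 135 and 152, which is 3.30-fold (standard error of the log2 difference 0.14). The pairs with miR-30b-5p and miR-30e-5p moved most with control replicate 3. For miR-30b-5p to miR-30e-5p, the log2 difference was -1.18, and it was -1.40 without control replicate 3 and -0.75 against it alone. For miR-30a-5p to miR-30b-5p, it was 1.72, with 1.84 and 1.48, respectively. Between miR-30c-5p and miR-30e-5p, the sign turned, with -0.18 without control replicate 3 and 0.15 against it alone.

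The make-up of the 5p counts was compared next. miR-30a-5p took 57.7% ± 0.369 of them in control and 61.0% ± 1.73 in RARαS77A cells, and miR-30d-5p took 28.3% ± 0.0860 and 29.8% ± 0.929 (SD, n = 3 each). The share of miR-30c-5p went from 10.5% ± 0.345 to 7.23% ± 0.758, that of miR-30e-5p from 2.16% ± 0.259 to 1.56% ± 0.0852, and that of miR-30b-5p from 1.35% ± 0.203 to 0.429% ± 0.0215 (SD, n = 3 each). The groups did not overlap in any of the 5 shares (exact permutation test, two-sided, p = 0.1 each, the smallest possible with 3 libraries per group), a separation that was also common elsewhere in the table, in 58.1% of all tested miRNAs by CPM and 55.6% of all pairs by ratio. The shares sum to the whole, so that they are not independent of each other.

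**Figure D3:**
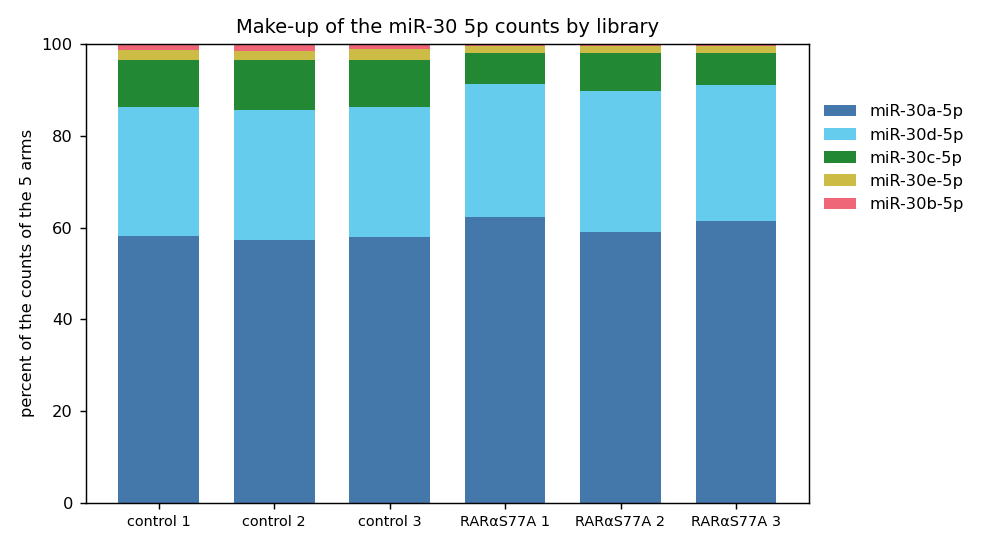
Share of each miR-30 5p arm, in percent, among the counts of the 5 arms in each of the 6 libraries. miR-30a-5p and miR-30d-5p fill most of each bar, and the shares of miR-30b-5p, miR-30c-5p and miR-30e-5p are smaller in each RARαS77A library than in each control.

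Next, neighbouring hairpins were compared within each locus. These ratios were chosen after the values of the single arms were seen and are given as a description. On chromosome 6, miR-30a-3p to miR-30c-2-3p was 4.55, 5.39 and 4.76 in control and 15.0, 13.3 and 12.3 in RARαS77A libraries. The fold change of this ratio was 2.76, with a log2 difference of 1.46 (standard error 0.11). In the miR-30b and miR-30d locus, miR-30d-5p to miR-30b-5p was 20.4, 18.5 and 25.0 in control and 65.1, 70.6 and 73.2 in RARαS77A libraries, a change of 3.29-fold (log2 difference 1.72, standard error 0.14). The 3p arms of the same hairpins, with few counts, gave 2.12, 1.72 and 2.60 in control and 9.75, 5.12 and 3.65 in RARαS77A libraries, which is 2.63-fold (log2 difference 1.39, standard error 0.44). On chromosome 1, miR-30e-3p to miR-30c-1-3p was 24.6, 18.0 and 23.3 in control and 99.8, 60.8 and 67.0 in RARαS77A libraries, which is 3.36-fold (log2 difference 1.75, standard error 0.25). In each of these 4 ratios, each RARαS77A library was above each control, control replicate 3 included. As 55.6% of all pairs of tested miRNAs did not overlap, separation alone is not particular to these pairs.

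The ratio of the 5p to the 3p arm was tested with limma across all 145 pairs of arms of the table that both passed the filter. Some arms, such as miR-30c-5p, occur in several pairs, so that the pairs are not all independent. In the members, 3 of 5 ratios were called (adjusted p under 0.05). Of all pairs of arms, 54.5% were called, 46 toward the 5p arm and 33 toward the 3p arm. The miR-30e ratio shifted toward the 3p arm. It was 5.39, 4.26 and 6.17 in control and 2.75, 2.96 and 2.72 in RARαS77A libraries, a log2 difference of -0.89 (95% interval -1.23 to -0.55, adjusted p = 0.000766, limma). By the size of its shift toward the 3p arm, miR-30e ranked 27 of the 145 pairs of arms. The miR-30d ratio shifted toward the 5p arm, from 666, 606 and 678 to 976, 988 and 1095, a log2 difference of 0.65 (95% interval 0.30 to 0.99, adjusted p = 0.00472, limma). The ratio of miR-30c-5p to miR-30c-2-3p went from 25.8, 24.5 and 26.4 to 43.2, 44.3 and 34.4, a log2 difference of 0.66 (95% interval 0.36 to 0.96, adjusted p = 0.00227, limma). This ratio includes 5p counts that come from MIR30C1. The ratio of miR-30c-5p to miR-30c-1-3p had a log2 difference of 0.79 (adjusted p = 0.0349, limma).

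For miR-30a, whose mature arms differ from those of miR-30e by 1 base each, the 5p-to-3p ratio was 32.0, 24.0 and 31.4 in control and 26.7, 24.3 and 25.1 in RARαS77A libraries. The groups overlapped, with a log2 difference of -0.19 (95% interval -0.56 to 0.18, adjusted p = 0.376, limma). The miR-30b ratio overlapped as well, at 69.2, 56.5 and 70.5 against 146, 71.6 and 54.6, a log2 difference of 0.32 (95% interval -0.46 to 1.10, adjusted p = 0.472, limma). This interval is wide, and a shift as large as that of miR-30d lies within it. Without control replicate 3, 3 ratios were again called. Against control replicate 3 alone, only the miR-30e ratio was called (log2 difference -1.13, adjusted p = 0.00421, limma), while the ratios of miR-30c-5p to miR-30c-2-3p (0.61, adjusted p = 0.0730, limma) and of miR-30d (0.58, adjusted p = 0.0970, limma) did not pass.

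Since miR-30 is known for its part in EMT, 10 other miRNAs that restrain EMT (the miR-200 and miR-34 families, miR-205-5p and miR-203a-3p) were set beside it, of which 8 passed the expression filter. With TMM, 2 of the 8 passed the test, both of them higher, beside 23.3% of all tested miRNAs called higher and 21.1% called lower. For miR-34c-5p the difference was 0.55 on the log2 scale (adjusted p = 0.00358, edgeR), and for miR-200b-3p it was 0.49 (adjusted p = 0.0241, edgeR). The median log2 fold change of the 8 was -0.19 with TMM. It includes miR-203a-3p and miR-205-5p, whose counts were uneven among the controls and highest in control replicate 1. In control replicates 1 to 3, miR-203a-3p had 605, 10 and 78 counts and miR-205-5p had 90, 1 and 24. Neither passed the test. With total counts, 2 of the 8 passed in edgeR, both of them lower, beside 42.1% of all tested miRNAs called lower and 10.1% called higher, namely miR-200a-3p (log2 fold change -0.92, adjusted p = 0.00726) and miR-34a-5p (-1.05, adjusted p = 0.00294).

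The miRNAs whose CPM followed the summed 5p arms most closely over the 6 libraries were taken from 302 candidates with a mean count of at least 50. They were miR-7-5p (Pearson r = 0.986), miR-3529-3p (0.985), miR-182-5p (0.981), miR-200b-3p (0.976) and miR-21-5p (0.974), given as a description over 6 libraries that share their scaling. miR-7-5p and miR-3529-3p had nearly the same counts in every library and count as 1 observation. The summed 5p CPM was 37718, 31844 and 38703 in control and 50051, 50771 and 50353 in RARαS77A libraries, so that these correlations mostly follow the step between the groups.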

How the data were processed

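Small RNA was sequenced from 3 control and 3 RARαS77A samples of MDA-MB-231 cells with an NEBNext small RNA kit on an Illumina HiSeq. The authors deposited whole-number counts per miRNA, not normalized, and TPM, which equals the count divided by the library total with no length term (largest difference 4.74e-05). Bowtie is named in the submitters' processing notes, while its settings, the reference and the handling of reads with several matches are not stated in the sources used here. No source says that the replicates were separate cultures, so p-values measure the spread between these samples, which may be technical.

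Deposited counts were tested with edgeR 4.0.16 (R 4.3.3; TMM, filterByExpr with a minimum count of 10, glmQLFit and glmQLFTest) over 506 miRNAs with Benjamini-Hochberg adjustment. Ratios of arms, as log2 with 0.5 counts added, were tested with limma 3.58.1. Alternatives used DESeq2 1.42.0, limma on counts and on log2(TPM + 1) or log2(TPM + 10), other scalings and filters, a replicate block, and libraries left out. Ratios between arms used exact permutation tests (scipy 1.17.1). The code was tested on simulated data. Named miRNAs were the members, miR-30c-1-3p, an EMT list, miRNAs sharing a seed, the 5 most alike, and markers of other cell types. Members and lists were chosen with earlier results of these data known. The sequences of miR-30b and miR-30d are not reported here.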

Additional observations from a re-analysis of the deposited data

How the results depend on the processing

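The scaling moved the calls most. With total counts alone, with limma on log2(TPM + 1) and with limma on log2(TPM + 10), 1 member was called higher and 6 lower, in place of 4 and 3. Under the same 3 settings, the rise of miR-30a-5p and miR-30d-5p was lost, and neither passed the test. The log2 fold change was -0.0117, -0.0097 and -0.0097 for miR-30a-5p (standard error 0.1028 with total counts). For miR-30d-5p it was -0.0135, -0.0123 and -0.0123 (standard error 0.0956 with total counts). miR-30a-3p kept its sign but no longer passed either, at 0.1731, 0.1782 and 0.1764. miR-30e-5p went from 0.0046 without a call to -0.5639, -0.5495 and -0.5433, and was newly called lower. Total counts alone differ from TMM in the scaling only. Over all alternatives, the log2 fold changes of single arms, miR-30c-1-3p included, stayed on their side of the threshold in 186 values. With their sign kept, 7 values passed it newly and 7 no longer passed. The 9 values of miR-30a-5p, miR-30d-5p and miR-30e-5p above changed both their sign and their call. Of the 186, 174 kept their sign and 12 turned it without a call, namely 10 values of miR-30e-5p and, with upper quartile scaling, miR-30c-5p (0.17) and miR-30d-3p (0.13). When the totals excluded the 5 most abundant miRNAs, 4 members were higher and 4 lower, with miR-30c-5p called at -0.28 (adjusted p = 0.0176, edgeR). With control replicate 3 as the only control, 1 ratio of 5p to 3p arms was called in place of 3, a fit with fewer samples. With each library left out in turn, 4 members were higher and 3 lower each time, 3 ratios of arms were called, and 8 to 9 pairs of 5p arms did not overlap.

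Same-numbered libraries did not deviate together (correlations 0.0386, 0.0996 and 0.0247), so the numbers were not taken as pairs. With a replicate block, 4 members were higher, 3 were lower and 3 ratios of arms were called, and the call of no member changed. The log2 fold changes of miR-30b-5p, miR-30b-3p, miR-30c-2-3p and miR-30e-3p kept their direction and call under all 19 alternatives. The low counts of miR-30b-3p limit its values, and reads that miR-30a and miR-30e arms might exchange could not be examined in these counts.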
